A study of Mus musculus with 12 samples.

Results

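KB5 CD8 T cells that had met antigen while CD40 ligand was blocked, called tolerized, were compared with KB5 CD8 T cells that had met the same antigen alone, called activated. The comparison takes 6 of the 12 libraries of the series, 3 tolerized and 3 activated, and they were chosen by their treatment labels. KB5 cells are CD8 T cells that carry the KB5 T cell receptor, which answers to an antigen of H2b mice such as C57BL/6, and they were recovered from CBA/J mice. Activated cells came from mice injected into a vein with 10000000 C57BL/6 spleen cells, a donor-specific transfusion. Tolerized cells came from mice that received the same transfusion and, into the abdomen, 0.5 mg of an antibody against CD154, the CD40 ligand. Both groups therefore shared the antigen, and the antibody was the labelled difference. Naive cells, from mice with neither treatment, and inflamed cells, from mice given the transfusion, the antibody and 100 µg of lipopolysaccharide (LPS), serve here only as reference levels, with 3 libraries each.

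All treated mice were examined at a single time, 12 h after treatment, and their spleen cells were sorted on the KB5 receptor and CD8 to a stated purity of 95%. The labels speak of independent libraries but do not say whether each came from its own mouse, so p-values measure the spread between these libraries, part of which may be technical. The age and sex of the mice, the antibody given to control mice and the way in which the host came to carry KB5 cells are not stated in the labels used here. In the extraction text the cells are embryonic fibroblasts of the mouse, unlike in every other field. Every one of the 6 libraries held 858 to 1199 CPM (read counts per 1000000 reads, scaled between libraries) of Cd8a, the CD8 alpha chain, and 236 to 331 CPM of Cd3e, a subunit of the T cell receptor complex.

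CD40 ligand is carried mainly by activated CD4 T cells and binds CD40 on dendritic cells and B cells. The contact, often called licensing, raises the antigen-presenting cell's costimulatory ligands and cytokines, which a CD8 T cell reads together with its antigen receptor signal. Blocking CD40 ligand during a transfusion of donor cells is an established way of making rodents accept grafts, and alloreactive CD8 T cells are in time deleted or silenced in such hosts. An activated CD8 T cell first switches on early transcription factors, cytokines and nutrient pathways, then the machinery of DNA replication, and then that of mitosis.

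No gene passed the test between the groups. Of 12499 genes tested, 0 (0%) had an adjusted p under 0.05 in limma-trend with Benjamini-Hochberg adjustment, and the smallest adjusted p was 0.957. At an unadjusted p under 0.05 there were 531 genes, of which 408 (3.26%) stood higher and 123 (0.984%) lower in tolerized cells. With scaling by library size alone the split was 313 higher and 157 lower. Genes with all 3 tolerized libraries above all 3 activated libraries numbered 527 (4.22%), and those with all 3 below numbered 306 (2.45%). These percentages are the background against which the gene groups below are read. Differences are given on the log2(CPM + 1) scale as tolerized minus activated with their standard error (SE), a scale that understates the change of genes at a few CPM. Since none passed adjustment, no gene is said here to have changed. The interval printed with a gene is the 95% interval of its log2 difference, unadjusted for the number of genes, and the limma adjusted p was 0.957 or above for every one of them.

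What the groups did hold was a direction shared by the genes of cell division. All 57 tested genes of a list for the G1/S step and DNA replication stood above 0, as did all 64 of a list for G2/M and mitosis, while of all tested genes 6563 stood above 0 and 5932 below. The median difference was 0.33 for the first list and 1.16 for the second, against 0.01 for all genes. In the other direction, 0 of 32 genes of interferon gamma response and antigen presentation stood above 0, with a median of -0.28. Under each of the other scalings tried (median of ratios, upper quartile and library size alone) these counts of 57, 64 and 0 were the same. Monocyte and macrophage markers stood lower too, with 0 of 19 above 0 and a median of -0.97. The lists were put together with earlier results of these data known, so their directions are a description of these 6 libraries and not independent evidence.

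**Figure D1:**
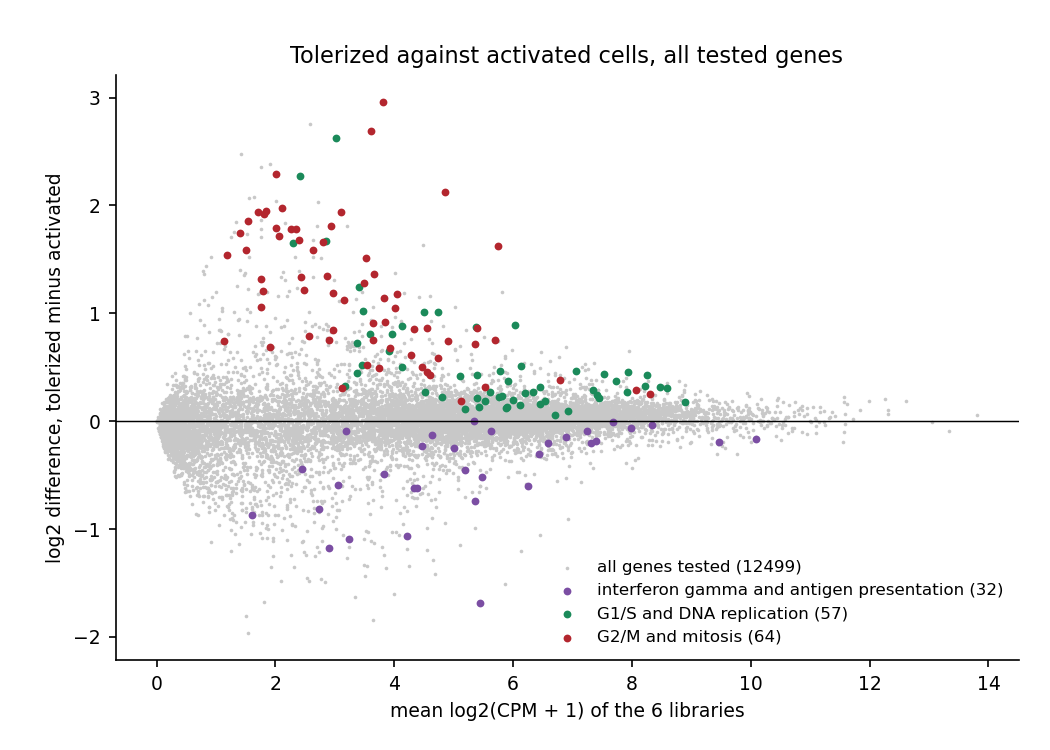
Mean log2(CPM + 1) over the 6 libraries (x axis) against the log2 difference, tolerized minus activated (y axis), for each of the 12499 tested genes, with 3 gene lists in colour. The 57 G1/S genes and 64 G2/M genes all lie above 0, and none of the 32 genes of interferon gamma response and antigen presentation does.

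Libraries within a group differed as much as libraries of different groups. The root mean square log2 difference over tested genes was 0.345 to 0.725 between activated libraries and 0.37 to 0.707 between tolerized libraries. Between the groups it was 0.361, 0.307 and 0.514 for libraries with the same number and 0.427 to 0.781 for the others. The first principal component of the 6 libraries, with 60.5% of the variance, ran from activated 1 and tolerized 1 at one end to activated 3 and tolerized 3 at the other, so it followed the replicate number and not the treatment. The second, with 21.5%, stood at 2.76, -13.8 and -28.6 in activated libraries 1 to 3 and at 1.65, 11 and 27 in tolerized ones. It set the groups apart for libraries numbered 2 and 3 but not for those numbered 1. Samples with the same number deviated together in all 3 pairs, and beside the counts below the fit with the replicate number as a block is given where it moves them by more than 1.5 times. With that block 0 genes passed (smallest adjusted p 0.618), and 986 genes had an unadjusted p under 0.05, of which 594 stood higher and 392 lower. Fitted on the 2 compared groups alone, 298 genes had an unadjusted p under 0.05, 196 higher and 102 lower, and beside the counts below this fit too is given where it moves them by more than 1.5 times. Read totals ran from 29335723 in tolerized 1 to 53123648 in activated 3. A gene's 95% interval reached a median of 0.342 to either side, so that a difference over 2-fold lay outside the interval for 87% of genes and one over 1.5-fold for 67.5%. Leaving out tolerized 1 left 60 genes past the test, 59 higher and 1 lower in the other tolerized libraries, and 20 of the 60 belonged to the replication or the mitosis list. Of the genes described below, 9 were among the 60, namely Cdc6, E2f8, Mki67, Top2a, Aurkb, Cdk1, Kntc1, Tigit and Socs1. Leaving out activated 1 called 0 genes (smallest adjusted p 0.135) but took the genes at an unadjusted p under 0.05 to 405 higher and 741 lower.

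DNA replication genes stood higher in tolerized cells. The list for G1/S and DNA replication had 37 of 57 members at an unadjusted p under 0.05 and higher, 0 lower, and 28 with all 3 tolerized libraries above all 3 activated ones. Libraries with the same number were ordered the same way in all 3 pairs for 49 of the 57 genes (86%), against 18.5% of all genes. The mean of the list on the log2(CPM + 1) scale was 5.36, 5.45 and 5.23 in activated libraries 1 to 3 and 5.56, 5.94 and 6.13 in tolerized libraries 1 to 3, so the groups did not overlap. Differences between libraries of the same number were 0.21, 0.49 and 0.89. With any 1 of the 6 libraries left out, the list's median stayed between 0.33 and 0.42. The members at an unadjusted p under 0.05 numbered 23 without tolerized 2 and 24 without tolerized 3, all of them higher.

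The helicase that opens DNA at replication origins is a ring of MCM proteins, and 3 of its subunits were among the 4 genes with the smallest p-values of the table. Mcm7 (chr5:138164583-138172111, GRCm38.p6) stood at 169, 171 and 135 CPM in activated libraries 1 to 3 and at 204, 221 and 215 CPM in tolerized libraries 1 to 3. All tolerized libraries were above all activated ones, with a difference of 0.44 ± 0.09 (interval 0.24 to 0.64); part of its locus also holds Ap4m1, whose reads cannot be told apart from it without strand. Mcm3 (chr1:20802966-20820312) stood at 223, 225 and 179 CPM in activated and 267, 313 and 280.4 CPM in tolerized libraries. Its groups were also apart, with a difference of 0.46 ± 0.10 (interval 0.25 to 0.67). Mcm6 stood at 267, 291 and 232 CPM in activated and 321, 383 and 359 CPM in tolerized libraries, again without overlap, a difference of 0.43 ± 0.09 (interval 0.22 to 0.63). The naive libraries lay far below both groups for all 3 genes (48.1, 48.8 and 50.9 CPM for Mcm3), and the inflamed libraries lay below both for Mcm3, at 165, 168 and 162 CPM. Mcm4 and Mcm5 also had no overlap, with differences of 0.37 and 0.32, whereas Mcm2 overlapped at 0.33. Of the genes named in the text, E2f1, Cdk4, Pfkp, Tigit, Bak1, Bcl2l1, Itgae and B2m also share part of their locus with another protein-coding gene of the table, so their values are uncertain in the same way.

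Enzymes that supply and copy DNA followed. Rrm1, the large subunit of ribonucleotide reductase, which makes deoxynucleotides, stood at 124, 112 and 102 CPM in activated and 142, 146 and 182 CPM in tolerized libraries. The lowest tolerized library lay above the highest activated one, and the difference was 0.47 ± 0.11 (interval 0.23 to 0.71). Tipin, a protein that steadies stalled replication forks, stood at 53.5, 48.8 and 53.4 CPM in activated and 64.1, 69.2 and 68.6 CPM in tolerized libraries. Its groups did not overlap, and the tolerized libraries lay close together, with a difference of 0.37 ± 0.09 (interval 0.18 to 0.56). Chaf1a, which sets histones on newly made DNA, stood at 18.2, 21.2 and 14.7 CPM in activated and 28.4, 38.4 and 45.9 CPM in tolerized libraries, a difference of 1.01 ± 0.26 (interval 0.42 to 1.59). Cdc6, a loader of the MCM ring, was low in every activated library, at 2.27, 4.4 and 2.74 CPM, and spread over 4.56, 14.6 and 23.6 CPM in tolerized libraries. The 3 Cdc6 values of tolerized cells lay above all activated ones, but tolerized 1 did so narrowly; the difference was 1.67 ± 0.48 (interval 0.61 to 2.73). Genes of the same list that did not separate included Pcna, the sliding clamp of the polymerases, at 514, 457 and 384 CPM in activated and 482, 529 and 509.9 CPM in tolerized libraries (0.17 ± 0.12, interval -0.10 to 0.45). Nasp, a histone chaperone, stood at 407, 332 and 306 CPM in activated and 523, 404 and 371 CPM in tolerized libraries and overlapped as well (0.31 ± 0.15, interval -0.02 to 0.64).

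Cyclins and E2F factors drive the entry into replication, and in this list of 29 tested genes 7 were higher at an unadjusted p under 0.05 and 0 lower (with the replicate block 9 and 1), with a median of 0.23. Ccne1, cyclin E1, which acts with CDK2 at the G1/S step, stood at 10.4, 11.4 and 12.8 CPM in activated and 15.7, 20.2 and 36.9 CPM in tolerized libraries. All tolerized values were above all activated ones, tolerized 3 by the most, with a difference of 0.93 ± 0.26. The activating factor E2f3 stood at 16.3, 15.9 and 15.3 CPM in activated and 19, 23.8 and 23.8 CPM in tolerized libraries, without overlap (0.45 ± 0.13, interval 0.17 to 0.73). E2f1, another activator, stood at 9.9, 10.6 and 8.25 CPM in activated and 12.2, 15.2 and 19 CPM in tolerized libraries, also apart (0.62 ± 0.21, interval 0.17 to 1.08). E2f8, a repressor made late in the same wave, was at 0.072, 0.133 and 0.225 CPM in activated libraries, near the level of 3 reads (0.0562 to 0.108 CPM), and at 0.38, 5.42 and 27.9 CPM in tolerized ones (2.48 ± 0.83, interval 0.65 to 4.30). Its value in tolerized 3 was above that of the naive libraries, 1.7, 1.81 and 5.43 CPM, and its value in tolerized 1 was below them. Ccnd2, a cyclin of early G1, stood at 2208, 1436 and 1208 CPM in activated and 2230.3, 1505 and 1229 CPM in tolerized libraries, with a 95% interval of the difference of -0.60 to 0.68. Cdk4, its partner kinase, had an interval of -0.20 to 0.36. The inhibitor Cdkn1b, which holds resting T cells out of the cycle, stood at 13.5, 30 and 54.4 CPM in activated and 10.8, 17.9 and 43.2 CPM in tolerized libraries and overlapped (-0.45 ± 0.54, interval -1.64 to 0.74).

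Mitosis genes differed by more and were far less even. The G2/M list had 51 of 64 members higher at an unadjusted p under 0.05 and 0 lower, and 26 without overlap. In 63 of the 64 genes the highest of the 6 libraries was tolerized 3. Over all tested genes the highest was tolerized 3 for 21.3% and activated 1 for 21.1%, and the lowest was activated 3 for 26% and tolerized 1 for 15.8%. Such counts for the lists below are read against these shares. The mean of the list was 2.82, 2.93 and 2.82 in activated libraries 1 to 3 and 2.96, 3.93 and 5.26 in tolerized libraries 1 to 3. Differences between libraries of the same number were 0.15 for number 1, 1 for number 2 and 2.43 for number 3. Without tolerized 3 the list's median was 0.53, with 19 members at an unadjusted p under 0.05, without tolerized 1 it was 1.72, and with the replicate block 37 members had an unadjusted p under 0.05. On the 2 groups alone 19 of the 64 did.

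Mki67, the proliferation marker Ki-67, stood at 5.11, 4.56 and 2.68 CPM in activated libraries and at 2.96, 48.5 and 301 CPM in tolerized libraries 1 to 3. Tolerized 1 lay within the activated range while tolerized 2 and tolerized 3 lay far above it, so the groups overlapped (2.96 ± 1.18, interval 0.36 to 5.57). The activated libraries were below all naive libraries for this gene, which stood at 19.7, 24.3 and 51.2 CPM. Top2a, the topoisomerase that untangles chromosomes, stood at 11.2, 16 and 11.7 CPM in activated and 16.3, 57 and 216 CPM in tolerized libraries. Tolerized 1 was above activated 2 by less than 1 CPM, and the difference was 2.12 ± 0.71 (interval 0.55 to 3.69). Aurkb, a kinase of chromosome segregation, stood at 0.72, 1.2 and 0.6 CPM in activated and 1.48, 9.2 and 27 CPM in tolerized libraries, apart but again led by tolerized 3 (2.29 ± 0.68, interval 0.79 to 3.79). Cdk1, the kinase that starts mitosis, stood at 1.58, 2.45 and 1.82 CPM in activated and 2.24, 9.33 and 23.9 CPM in tolerized libraries, where tolerized 1 lay below activated 2 (1.68 ± 0.57, interval 0.43 to 2.93). Ccnb2, cyclin B2, a partner of Cdk1, stood at 0.648, 0.853 and 0.506 CPM in activated and 0.798, 4.22 and 26.7 CPM in tolerized libraries and overlapped through tolerized 1 (1.94 ± 0.73, interval 0.32 to 3.55). Bub1b, of the spindle checkpoint, stood at 7.24, 7.86 and 5.64 CPM in activated and 9.61, 18.3 and 39.3 CPM in tolerized libraries and did not overlap (1.36 ± 0.42, interval 0.43 to 2.30). Smc2, a condensin subunit, had the smallest p of the list, at 92.4, 97.2 and 98.4 CPM in activated and 113, 119 and 146 CPM in tolerized libraries (0.38 ± 0.10, interval 0.16 to 0.60). Smc4, its partner, stood at 189, 288 and 438 CPM in activated and 249.5, 321 and 505 CPM in tolerized libraries and overlapped (0.25 ± 0.29, interval -0.39 to 0.90).

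Kntc1 and Ckap2l, genes outside the list, also had tolerized 3 as the highest library and tolerized 1 as the lowest tolerized one. Kntc1, which helps to recruit the spindle checkpoint, stood at 1.08, 2.13 and 1.48 CPM in activated and 2.17, 7.68 and 22.3 CPM in tolerized libraries (1.77 ± 0.56, interval 0.52 to 3.02). Ckap2l, a spindle protein, stood at 2.27, 1.95 and 1.71 CPM in activated and 2.47, 5.76 and 25.5 CPM in tolerized libraries (1.53 ± 0.57, interval 0.27 to 2.78). Replication-dependent histone genes showed no such pattern: the 10 tested genes had a median of -0.04 and 0 at an unadjusted p under 0.05, and their transcripts lack the poly(A) tail on which messenger RNA isolation relies. Because the samples are bulk RNA, fewer cells of a kind and less RNA in each cell cannot be told apart for any gene here.

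**Figure D2:**
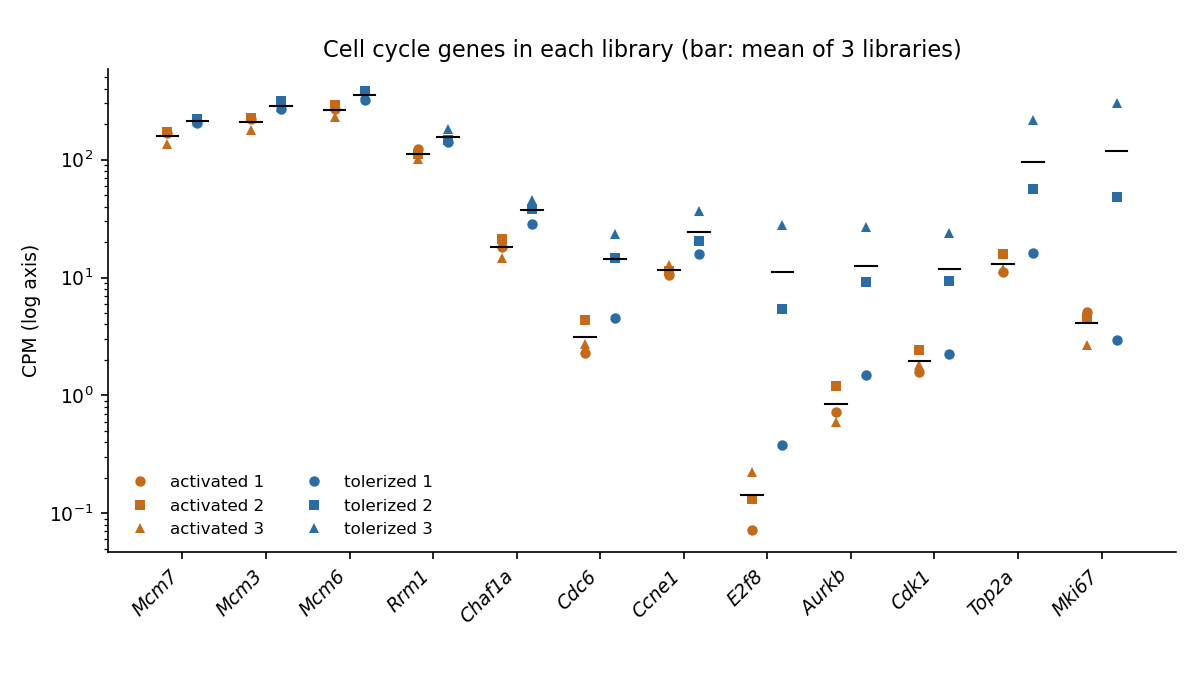
CPM on a log axis of 12 genes of replication and mitosis in each of the 6 libraries, with a bar at the mean of 3 libraries. For Mcm7, Mcm3 and Mcm6 all tolerized libraries lie above all activated ones, whereas Mki67 runs from 2.96 CPM in tolerized 1 to 301 CPM in tolerized 3.

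Replication and mitosis genes are known to be switched by different elements of their promoters, so the 250 bases before the start of 5 of these genes are shown, with matches in capitals. The matches are to the cell cycle homology region (CHR, TTTGAA), the CCAAT box (CCAAT) and an E2F-type site (TTTNNCGC), each searched on both strands. Sequences are from RefSeq on GRCm38.p6, read 5′ to 3′ along the gene, and all 5 genes lie on the minus strand. Mcm3 and Mcm6 stand for replication genes, and Cdk1, Top2a and Ccnb2 for mitosis genes.
Mcm3, chr1:20820313-20820562: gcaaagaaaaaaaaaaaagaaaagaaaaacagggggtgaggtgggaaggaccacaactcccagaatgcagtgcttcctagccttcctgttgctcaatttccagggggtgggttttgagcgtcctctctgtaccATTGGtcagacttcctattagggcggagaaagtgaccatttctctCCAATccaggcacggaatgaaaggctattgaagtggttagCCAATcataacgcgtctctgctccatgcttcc
Mcm6, chr1:128359706-128359955: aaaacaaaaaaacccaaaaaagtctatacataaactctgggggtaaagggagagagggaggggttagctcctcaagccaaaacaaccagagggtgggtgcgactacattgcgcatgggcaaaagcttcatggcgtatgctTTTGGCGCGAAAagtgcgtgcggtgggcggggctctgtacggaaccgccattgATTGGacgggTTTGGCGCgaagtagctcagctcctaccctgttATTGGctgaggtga
Cdk1, chr10:69352913-69353162: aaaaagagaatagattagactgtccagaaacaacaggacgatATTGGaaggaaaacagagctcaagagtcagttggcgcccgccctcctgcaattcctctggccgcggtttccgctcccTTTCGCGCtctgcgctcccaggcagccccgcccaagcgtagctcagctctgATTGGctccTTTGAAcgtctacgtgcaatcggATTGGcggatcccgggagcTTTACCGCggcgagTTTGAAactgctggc
Top2a, chr11:99024190-99024439: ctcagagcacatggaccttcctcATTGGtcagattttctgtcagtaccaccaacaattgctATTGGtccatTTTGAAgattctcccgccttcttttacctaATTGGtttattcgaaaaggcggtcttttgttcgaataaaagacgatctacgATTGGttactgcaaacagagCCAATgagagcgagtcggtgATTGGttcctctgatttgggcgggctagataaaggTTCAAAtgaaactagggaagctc
Ccnb2, chr9:70421555-70421804: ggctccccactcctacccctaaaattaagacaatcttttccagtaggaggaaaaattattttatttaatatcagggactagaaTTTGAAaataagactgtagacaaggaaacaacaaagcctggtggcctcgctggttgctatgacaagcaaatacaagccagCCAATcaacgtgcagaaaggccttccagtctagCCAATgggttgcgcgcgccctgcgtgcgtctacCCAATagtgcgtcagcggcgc

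The Mcm3 window held 3 CCAAT matches and neither of the other motifs, and the Mcm6 window held 2 CCAAT and 3 E2F-type matches, of which 2 overlap on opposite strands. The Cdk1 window held 2 CHR, 3 CCAAT and 2 E2F-type matches. Top2a had 2 CHR and 6 CCAAT matches, and Ccnb2 had 1 CHR and 3 CCAAT matches. Over all tested genes, windows were found for 10049 of 12499 genes, and of these 12746 windows 10.8% held a CHR match, 35.4% a CCAAT match and 6.61% an E2F-type match. Windows were found for 53 of the 64 G2/M genes, and of their 56 windows 37.5% held CHR, 75% CCAAT and 12.5% E2F-type matches. For 44 of the 57 G1/S genes the 53 windows held them at 15.1%, 58.5% and 28.3%. These shares describe letters in a window of fixed length, and whether a factor binds there was not measured.

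Metabolic genes had small differences, and those of glycolysis leaned higher. Of 23 tested glycolysis genes 20 stood above 0, with a median of 0.16, and 5 were higher at an unadjusted p under 0.05 (0 lower; on the 2 groups alone 2 were higher). Eno1, an enolase that acts late in the pathway, stood at 134, 136 and 128 CPM in activated and 164, 171 and 164 CPM in tolerized libraries. Its groups did not overlap (0.32 ± 0.10, interval 0.10 to 0.54). Gapdh, which has many processed copies in the genome that can share its reads, stood at 176, 149.7 and 157 CPM in activated and 204, 229 and 218 CPM in tolerized libraries, also apart (0.43 ± 0.10, interval 0.22 to 0.64). Pfkp, a phosphofructokinase, was apart by less, at 165, 192 and 177 CPM in activated and 198, 202 and 224 CPM in tolerized libraries (0.22 ± 0.08, interval 0.06 to 0.39). Ldha, which makes lactate, stood at 2074, 1805 and 1509 CPM in activated and 2021, 2066 and 1804 CPM in tolerized libraries and overlapped (0.14 ± 0.14, interval -0.16 to 0.44). Without activated 3, the lowest library for 28 of 30 oxidative phosphorylation genes, the glycolysis median fell to 0.03.

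Biosynthetic lists had narrow intervals. All 37 ribosome biogenesis genes had a 95% interval within 2-fold, and all 30 oxidative phosphorylation genes had one within 1.5-fold, with a median of 0.06 in each list and 0 members at an unadjusted p under 0.05 (with the replicate block 1 higher in each). In all 3 same-number pairs 17 of the 37 ribosome biogenesis genes (45.9%) were higher and 0 lower, against 18.5% and 12.5% of all genes. Ncl, nucleolin, stood at 8016, 5268 and 4794 CPM in activated and 9164, 6209 and 5268 CPM in tolerized libraries, with an interval of -0.35 to 0.73. It was higher in each same-number pair, though its lowest and highest value within the activated group differed by more than the group means did. Atp5b, a subunit of ATP synthase, had an interval of -0.19 to 0.32. The amino acid and one-carbon list (29 genes, median 0.03), the sterol and fatty acid list (26 genes, median 0.07), the endoplasmic reticulum chaperone list (22 genes, median 0.02) and the cytosolic chaperone list (20 genes, median 0.00) each had 0 members at an unadjusted p under 0.05 in either direction. With the replicate block 3 amino acid, 2 sterol and 1 endoplasmic reticulum gene were higher.

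Genes of the early answer to the antigen receptor overlapped between the groups, with 1 exception. Of 29 transcription factors that the receptor induces, 0 reached an unadjusted p under 0.05, and the median was -0.05. With the replicate block 1 was higher and 2 lower, and on the 2 groups alone 1 was lower. Fos was the 1 member without overlap, with all tolerized libraries below all activated ones, as for 2.45% of all genes. Its difference was -0.62 ± 1.22, an SE far above its SD within activated (0.26) and tolerized (0.31) libraries. Nr4a1, an orphan receptor whose level follows the strength of the receptor signal, stood at 1066, 1120.0 and 818 CPM in activated and 1191, 1116 and 649.7 CPM in tolerized libraries, against 10.3, 11.9 and 79.7 CPM in naive ones. The groups overlapped, and the interval of -1.40 to 1.29 comes from a spread estimated over all groups, naive 3 among them. Nr4a3, its relative, was measured more closely, at 252, 202 and 158 CPM in activated and 263, 214 and 147 CPM in tolerized libraries, an interval of -0.52 to 0.54. Egr2, tied to the silencing of T cells that lack costimulation, stood at 116, 105 and 77.7 CPM in activated and 107, 134 and 70 CPM in tolerized libraries (-0.48 to 0.54). Within both groups the libraries numbered 3 were the lowest for Nr4a1, Nr4a3 and Egr2. Cd69, an early surface marker of activation, stood at 161, 120.2 and 145 CPM in activated and 96.7, 129 and 93.6 CPM in tolerized libraries and overlapped (-0.42 ± 0.30, interval -1.09 to 0.25).

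Few genes of the blocked ligand and the TNF receptor family stood apart in the CD8 cells. Of 19 genes of CD40 ligand and the TNF receptor family, 1 was higher and 0 lower at an unadjusted p under 0.05, with a list median of 0.03. With the replicate block 1 was higher and 1 lower, and on the 2 groups alone 0 were. Cd40lg, the antibody's target, was low, at 4.21, 2.29 and 1.82 CPM in activated and 4.25, 1.5 and 2.97 CPM in tolerized libraries, and above the naive 0.783, 1.12 and 1.13 CPM in every one of the 6. The groups overlapped, with an interval of -0.59 to 0.66. Tnfrsf9, the costimulatory receptor 4-1BB, had an interval of -0.36 to 0.50, and Cd27, another one, of -0.25 to 0.29. Traf5, an adaptor below these receptors, was the 1 gene higher, at 12.2, 12.2 and 13.8 CPM in activated and 15.6, 14.2 and 18.9 CPM in tolerized libraries, without overlap (0.32 ± 0.14, interval 0.00 to 0.64). Cd28, the receptor for B7 ligands, stood at 261, 313 and 297 CPM in activated and 285, 326 and 348 CPM in tolerized libraries and overlapped (0.14 ± 0.11, interval -0.10 to 0.38).

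Cytokine messages overlapped too, with 1 exception among 16. At an unadjusted p under 0.05 there were 0 higher and 1 lower (with the replicate block 2 and 3). Il2, the T cell growth factor, stood at 9.36, 2.74 and 2.23 CPM in activated and 5.28, 2.79 and 3 CPM in tolerized libraries, with activated 1 the highest (-0.13 ± 0.37, interval -0.95 to 0.68). Ifng, interferon gamma, had an interval of -0.50 to 0.83. Xcl1, a chemokine that draws cross-presenting dendritic cells, stood at 1180.3, 708 and 556 CPM in activated and 1149, 828 and 718 CPM in tolerized libraries, against 333, 287 and 303 CPM in inflamed ones (0.18 ± 0.24, interval -0.35 to 0.72). The death ligand Fasl stood at 60.4, 40.1 and 31.2 CPM in activated and 76.4, 55.3 and 45.9 CPM in tolerized libraries, higher in each same-number pair but overlapping (0.44 ± 0.30, interval -0.21 to 1.10). Osm, oncostatin M, a target of STAT5, was the exception, at 8.64, 8.63 and 10.5 CPM in activated and 6.61, 6.29 and 7.04 CPM in tolerized libraries. All tolerized libraries were below all activated ones (-0.42 ± 0.13, interval -0.71 to -0.13).

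Suppressors of cytokine signalling were among the genes that stood lower. Socs1, a STAT-induced brake on interferon and interleukin signals, stood at 16.8, 16.3 and 14.3 CPM in activated and 14.1, 9.26 and 9.9 CPM in tolerized libraries, below the naive 27, 27.3 and 22.7 CPM and the inflamed 52.9, 56.7 and 51.9 CPM. Tolerized 1 was just under activated 3, and the difference was -0.49 ± 0.15 (interval -0.82 to -0.16). It was the 1 gene that passed as lower when tolerized 1 was left out. Socs3, its relative, stood at 7.92, 24.5 and 56.5 CPM in activated and 4.52, 2.95 and 12 CPM in tolerized libraries, with overlap through activated 1 and tolerized 3 (-1.84 ± 0.60, interval -3.18 to -0.51). Of 18 genes of IL-2 and STAT5 response, Socs1, Socs3 and Osm were the 3 at an unadjusted p under 0.05, all lower, beside a list median of 0.02. Other members were close: Il2ra, the high-affinity IL-2 receptor chain, stood at 343, 215 and 197 CPM in activated and 327, 217 and 236 CPM in tolerized libraries, an interval of -0.45 to 0.58.

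Receptors for cytokines mostly overlapped, with Ifngr2 and Il2rb apart. Of 21 tested genes 0 were higher and 1 lower at an unadjusted p under 0.05 (with the replicate block 2 lower). Ifngr2, the signalling chain of the interferon gamma receptor, stood at 3.74, 8.07 and 14.6 CPM in activated and 2.74, 2.88 and 2.5 CPM in tolerized libraries, against 37.6, 38.9 and 37.4 CPM in naive ones. The tolerized libraries lay close together and under all activated ones, which spread widely (-1.24 ± 0.35, interval -2.01 to -0.48). Without activated 1 the list had 8 genes lower at an unadjusted p under 0.05. Il2rb, a signalling chain shared by the IL-2 and IL-15 receptors, stood at 129.9, 128 and 128 CPM in activated and 139, 139.6 and 298 CPM in tolerized libraries, all tolerized ones higher but only tolerized 3 by much (0.48 ± 0.24, interval -0.05 to 1.01). Il7r, the receptor for the survival cytokine IL-7, stood at 5.76, 34.6 and 87.9 CPM in activated and 4.48, 5.07 and 21.8 CPM in tolerized libraries, against 287, 273 and 246 CPM in naive ones, and overlapped (-1.61 ± 0.94, interval -3.69 to 0.47).

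**Figure D3:**
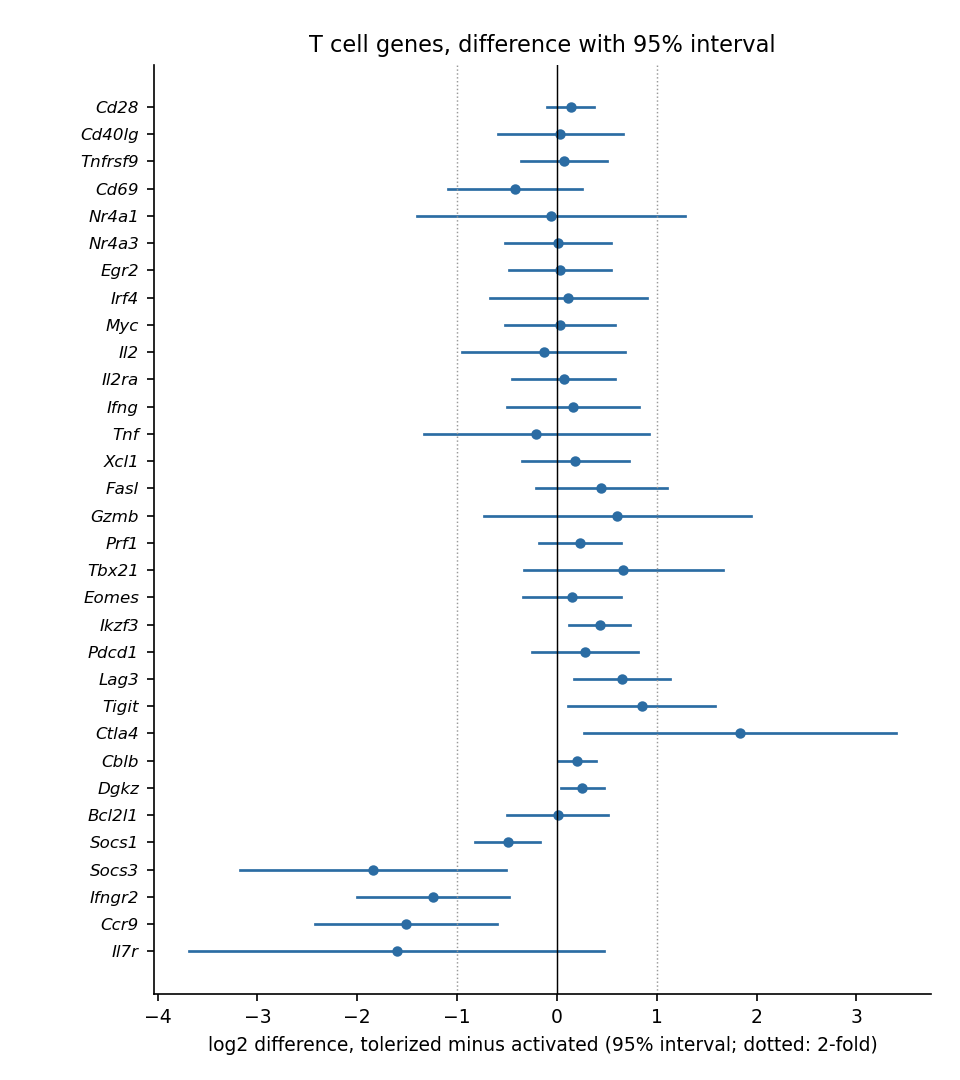
Log2 difference, tolerized minus activated, with its 95% interval from limma for 32 T cell genes; dotted lines mark 2-fold. Among early activation genes, Nr4a3 and Tnfrsf9 lie near 0 with intervals inside 2-fold, while those of Nr4a1 and Cd69 reach beyond it. Lag3 and Ikzf3 lie to the right of 0, and Socs3, Ifngr2 and Ccr9 to the left.

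The mean of the list for the CD28 family and inhibitory receptors differed from pair to pair. The list also holds the costimulatory receptors Cd28, Icos and Cd226 and the ligands Cd80, Cd86, Cd274 and Pdcd1lg2, so it is not limited to inhibitory receptors. Of its 22 genes, 11 (50%) were nevertheless higher in all 3 same-number pairs. Over all genes that share was 18.5%, and 0 of the 22 were lower in all 3 pairs. Of 22 genes of the CD28 family and inhibitory receptors, 3 were higher and 0 lower at an unadjusted p under 0.05, with a median of 0.16, with the replicate block 6 were higher and on the 2 groups alone 1. The list mean differed by -0.19, 0.18 and 0.62 between tolerized and activated libraries of the same number. Tolerized 3 was the highest library for 9 of the 22 genes (40.9%), against 21.3% of all genes. Lag3, a receptor for MHC class II that restrains T cells, stood at 210.3, 235 and 155 CPM in activated and 304, 315 and 312 CPM in tolerized libraries. The tolerized libraries lay close together and above every activated one (0.65 ± 0.22, interval 0.17 to 1.13). Ctla4, which competes with CD28 for its ligands, stood at 1.55, 1.63 and 1.01 CPM in activated and 1.6, 6.56 and 30 CPM in tolerized libraries, so that tolerized 1 lay in the activated range and tolerized 3 at the low end of the inflamed values of 29.3, 41.3 and 48.4 CPM (1.83 ± 0.71, interval 0.27 to 3.39). Tigit stood at 3.6, 5.81 and 4.22 CPM in activated and 4.33, 15.8 and 9.64 CPM in tolerized libraries, with overlap through tolerized 1 (0.85 ± 0.33, interval 0.11 to 1.58). Pdcd1, PD-1, stood at 120.0, 77.5 and 58.8 CPM in activated and 124, 94.3 and 83.8 CPM in tolerized libraries and overlapped (0.28 ± 0.24, interval -0.25 to 0.81).

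Genes tied to anergy and deletion pointed both ways. Of 21 tested, 5 were higher and 2 lower at an unadjusted p under 0.05 (on the 2 groups alone 2 and 2), with a median of 0.01. Lag3, Dgkz, Cblb and Folr4 were among the higher ones, and the lower ones were Socs1 and Socs3. Cblb, a ubiquitin ligase that raises the threshold for activation without costimulation, stood at 277, 265 and 261 CPM in activated and 337, 306 and 282 CPM in tolerized libraries. All tolerized values were higher, by a small margin (0.20 ± 0.09, interval 0.01 to 0.39). Dgkz, a kinase that removes the second messenger diacylglycerol, stood at 444, 533 and 484 CPM in activated and 505, 627 and 616 CPM in tolerized libraries and overlapped (0.25 ± 0.10, interval 0.04 to 0.47). Folr4, a surface protein first described on regulatory and anergic T cells, stood at 7.31, 7.62 and 8.14 CPM in activated and 6.38, 17.7 and 42.2 CPM in tolerized libraries, lowest in tolerized 1 and highest in tolerized 3 (1.06 ± 0.48, interval 0.01 to 2.12). Ubash3b, a phosphatase that dampens receptor signalling and was not on the list, stood at 54.7, 48.8 and 37.8 CPM in activated and 74.9, 67.8 and 68.6 CPM in tolerized libraries, without overlap and above the naive 4.52, 5.7 and 4.98 CPM (0.58 ± 0.14, interval 0.27 to 0.90).

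Of the 24 genes of survival and death, 2 stood higher and 3 lower without overlap, and the others overlapped. Over all genes these shares were 4.22% and 2.45%. Of 24, 2 were higher and 1 lower at an unadjusted p under 0.05 (with the replicate block 2 and 2, on the 2 groups alone 1 and 1), and the median was 0.01. Bak1, which opens the mitochondrial membrane in apoptosis, stood at 53.2, 52.1 and 38.3 CPM in activated and 57.9, 53.7 and 65.3 CPM in tolerized libraries, narrowly without overlap (0.31 ± 0.13, interval 0.02 to 0.59). Bmf, a death-promoting BH3 protein, was the lower one by p, at 0.864, 1.31 and 2.4 CPM in activated and 0.418, 0.759 and 0.67 CPM in tolerized libraries. Its groups did not overlap, and both were far under the naive 11.7, 10.4 and 9.6 CPM (-0.60 ± 0.21, interval -1.07 to -0.14). The survival gene Bcl2l1, Bcl-xL, stood at 104, 63.6 and 51.4 CPM in activated and 79.8, 72.5 and 59.9 CPM in tolerized libraries and overlapped, an interval of -0.50 to 0.52.

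Genes of interferon gamma response and antigen presentation stood lower as a group. The list also holds the MHC class II genes H2-Aa, H2-Ab1 and Cd74 and their regulator Ciita, so it is not limited to genes of T cells. Of 32 tested, 5 were lower at an unadjusted p under 0.05 and 0 higher, 2 had no overlap, and 18 (56.2%) were lower in all 3 same-number pairs against 12.5% of all genes. The list mean was 5.59, 5.53 and 5.87 in activated libraries 1 to 3 and 4.90, 5.10 and 5.66 in tolerized ones, so tolerized 3 lay above activated 1 and 2. With the replicate block 17 members were lower at an unadjusted p under 0.05. The median of -0.28 became -0.45 without tolerized 3 (15 lower at an unadjusted p under 0.05) and -0.13 without tolerized 1 (2 lower). Without activated 1, the library with the highest macrophage markers, it was also -0.45 (9 lower), and without activated 3 it was -0.25 (2 lower).

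Within that list the interferon-inducible GTPases Tgtp1, Tgtp2, Iigp1 and Gbp2 had the largest differences. Tgtp1, which has a near copy in Tgtp2 that can share its reads, stood at 39.1, 74.2 and 159 CPM in activated and 17.1, 23.2 and 31.8 CPM in tolerized libraries, against 473, 482 and 305 CPM in naive ones. The highest tolerized library was under the lowest activated one (-1.69 ± 0.44, interval -2.66 to -0.72). Iigp1 stood at 20.7, 7.57 and 13.3 CPM in activated and 4.71, 4.04 and 8.53 CPM in tolerized libraries, and tolerized 3 overlapped activated 2 (-1.09 ± 0.45, interval -2.09 to -0.09). Gbp2, a guanylate-binding protein, showed a like pattern and stood at 22.7, 17.5 and 44.1 CPM in activated and 7.64, 9.4 and 22.8 CPM in tolerized libraries (-1.07 ± 0.47, interval -2.10 to -0.04). Class I presentation genes differed less: H2-K1, the heavy chain, stood at 674, 753 and 843 CPM in activated and 605, 639.5 and 734 CPM in tolerized libraries (-0.20 ± 0.12, interval -0.47 to 0.08), and B2m, its light chain, had a difference of -0.17 ± 0.16. Type I interferon genes, a list of 39 with a median of -0.13 and 0 at an unadjusted p under 0.05, split by library: tolerized 3 was the highest of the 6 for 27 genes and tolerized 1 the lowest for 26. With the replicate block 4 were lower. The median was -0.51 without tolerized 3 (8 lower at an unadjusted p under 0.05) and 0.14 without tolerized 1 or 0.10 without activated 3. Mx1, an antiviral GTPase, stood at 0.72, 0.586 and 0.937 CPM in activated and 0.456, 0.67 and 10.6 CPM in tolerized libraries (0.80 ± 0.64, interval -0.60 to 2.21).

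Genes of naive and resting T cells were spread by replicate number more than by treatment. Of 26 tested, 2 were lower at an unadjusted p under 0.05 and 0 higher, the median was -0.27, and 8 stood above 0; with the replicate block 11 were lower. The list mean was 5.20, 6.10 and 6.67 in activated libraries 1 to 3 and 5.09, 5.37 and 6.33 in tolerized ones, against 7.73 to 7.78 in naive libraries. S1pr1, which lets T cells leave the lymphoid organ, stood at 7.74, 75.6 and 201 CPM in activated and 5.7, 21 and 83 CPM in tolerized libraries, against 606, 602 and 465 CPM in naive ones. The lowest library of each group was number 1 and the highest number 3, and S1pr1 was lower in tolerized cells in each same-number pair (-1.15 ± 1.26, interval -3.92 to 1.62). In all 3 pairs 11 of the 26 genes (42.3%) were lower and 3 (11.5%) higher, against 12.5% and 18.5% of all genes. Itgae, the CD103 integrin, stood at 5.11, 20.9 and 41.5 CPM in activated and 4.48, 4.58 and 5.33 CPM in tolerized libraries, level in the tolerized group (-1.63 ± 0.58, interval -2.92 to -0.33). Without activated 1 the list's median was -0.58 (13 lower at an unadjusted p under 0.05), without tolerized 3 -0.50 (6 lower), without tolerized 1 -0.11 and without activated 3 -0.04.

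**Figure D4:**
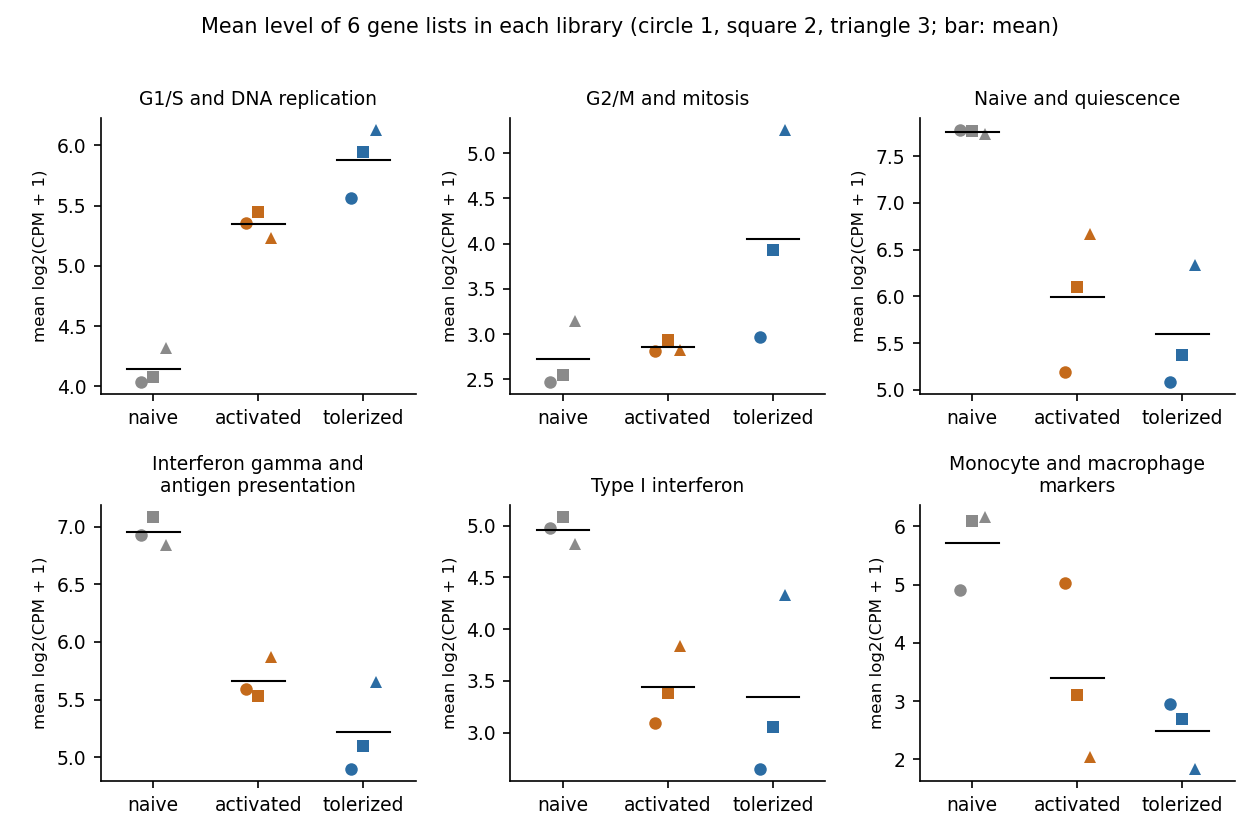
Mean log2(CPM + 1) of 6 gene lists in each naive, activated and tolerized library, with symbols for replicate numbers and a bar at the group mean. The G1/S list separates tolerized from activated libraries, whereas the naive list is lowest in number 1 and highest in number 3 of both groups, and the macrophage list is highest in activated 1 among the 6.

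Ccr9 and Itga1 were the genes of 23 for chemokine receptors and adhesion whose groups did not overlap. Ccr9 (chr9:123767211-123783457, GRCm38.p6), which guides cells to the small intestine and is high in naive CD8 T cells, stood at 43.4, 109 and 192 CPM in activated and 28.3, 40.9 and 32.4 CPM in tolerized libraries, against 387, 376 and 291 CPM in naive and 91.6, 129 and 94.9 CPM in inflamed ones. Tolerized libraries were all lower and close together, and the activated ones spread widely (-1.51 ± 0.41, interval -2.42 to -0.60). Itga1, an integrin that binds collagen, stood at no more than 0.576 CPM in the 6 libraries, near the level of 3 reads. Of the 23 genes 1 was higher and 1, Ccr9, lower at an unadjusted p under 0.05 (with the replicate block 3 and 3, on the 2 groups alone 0 and 1), with a median of -0.02. Cxcr3, a receptor of inflamed tissue, stood at 5.15, 3.73 and 3.41 CPM in activated and 5.66, 4.78 and 50 CPM in tolerized libraries, where tolerized 3 alone was high (1.31 ± 0.64, interval -0.10 to 2.72).

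Cytotoxic genes overlapped between the groups and were often high in tolerized 3. Of 16 cytotoxic granule genes 1, Serpinb6b, was higher at an unadjusted p under 0.05 (0 on the 2 groups alone). Tolerized 3 was the highest of the 6 libraries for 10 of the 16 (62.5%), against 21.3% of all genes. The list's median of 0.21 became -0.04 without tolerized 3. Gzmb, granzyme B, stood at 54.7, 33.5 and 54.1 CPM in activated and 35.4, 37.9 and 261 CPM in tolerized libraries, against 434, 324 and 408 CPM in inflamed ones (0.60 ± 0.61, interval -0.73 to 1.94). Prf1, perforin, stood at 136, 118 and 103 CPM in activated and 140.1, 134 and 141 CPM in tolerized libraries and overlapped (0.23 ± 0.19, interval -0.18 to 0.64). Tbx21, the effector factor T-bet, stood at 7.38, 6.58 and 6.82 CPM in activated and 7.14, 6.65 and 30.7 CPM in tolerized libraries, high only in tolerized 3 of these 6 and higher still in inflamed libraries at 163, 117 and 92.6 CPM (0.66 ± 0.45, interval -0.33 to 1.66). Eomes, its relative, stood at 328, 269.8 and 253 CPM in activated and 279.8, 472 and 232 CPM in tolerized libraries, an interval of -0.34 to 0.64. Ikzf3, the factor Aiolos, was the 1 of 24 fate factors higher at an unadjusted p under 0.05 (with the replicate block 3 higher and 1 lower), at 207, 288 and 318 CPM in activated and 326, 383 and 371 CPM in tolerized libraries, without overlap (0.43 ± 0.14, interval 0.12 to 0.73). Klrk1, the activating receptor NKG2D, stood at 10.5, 10.1 and 11.9 CPM in activated and 15.1, 18.9 and 60 CPM in tolerized libraries, all tolerized ones higher (1.19 ± 0.40, interval 0.29 to 2.08). Ly6c1, which marks memory-type CD8 cells, had one of the widest spreads, at 0.646, 2.03 and 72.3 CPM in tolerized libraries against 2.48, 1.92 and 1.93 CPM in activated ones (1.21 ± 1.08, interval -1.19 to 3.60).

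Markers of other cells were present in the 6 libraries and were highest in single ones. Those of monocytes and macrophages also stood lower in tolerized cells as a group, with 0 of 19 above 0. In all 3 same-number pairs 13 of the 19 (68.4%) were lower, against 12.5% of all genes. All 19 tested monocyte and macrophage markers had their highest value in activated 1, and their summed level was 948, 226 and 80.7 CPM in activated libraries 1 to 3 and 188, 152 and 67.2 CPM in tolerized ones. Csf1r, the receptor for the macrophage growth factor, stood at 124, 29.7 and 10.5 CPM in activated and 22.9, 18.3 and 7.04 CPM in tolerized libraries (-1.19 ± 1.12, interval -3.67 to 1.29), against 156, 369.7 and 368 CPM in naive ones. The list had 0 members at an unadjusted p under 0.05 (with the replicate block 8, all lower), and its median of -0.97 became -0.12 without activated 1 and -1.72 without activated 3. Summed B cell markers were 153, 184 and 170 CPM in activated libraries 1 to 3 and 123, 196 and 252 CPM in tolerized ones, with tolerized 3 the highest for 11 of 14 genes. The mean log2(CPM + 1) of 7 natural killer cell markers, Klrk1 and Eomes among them, was 2.31, 2.365 and 2.663 in activated libraries 1 to 3. In tolerized libraries 1 to 3 it was 2.222, 2.49 and 3.475, with tolerized 3 the highest for 5 of the 7 genes. Cd4 stood at 6.66, 4.42 and 4.37 CPM in activated and 4.63, 3.68 and 5.44 CPM in tolerized libraries. Neutrophil markers (10 genes, median 0.02), dendritic cell markers (13 genes, median -0.08) and erythroid markers (14 genes, median -0.05) had 0 members at an unadjusted p under 0.05, though the replicate block gave 1 lower neutrophil and 1 lower dendritic cell marker and the 2 groups alone 1 lower neutrophil marker. Of the 20 monocyte and macrophage genes measured, Vsig4 was at 0 in 3 of the 6 libraries, and of the 14 B cell genes none was at 0 in any. The part of these cells in the interferon gamma and effector values was not tested.

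**Figure D5:**
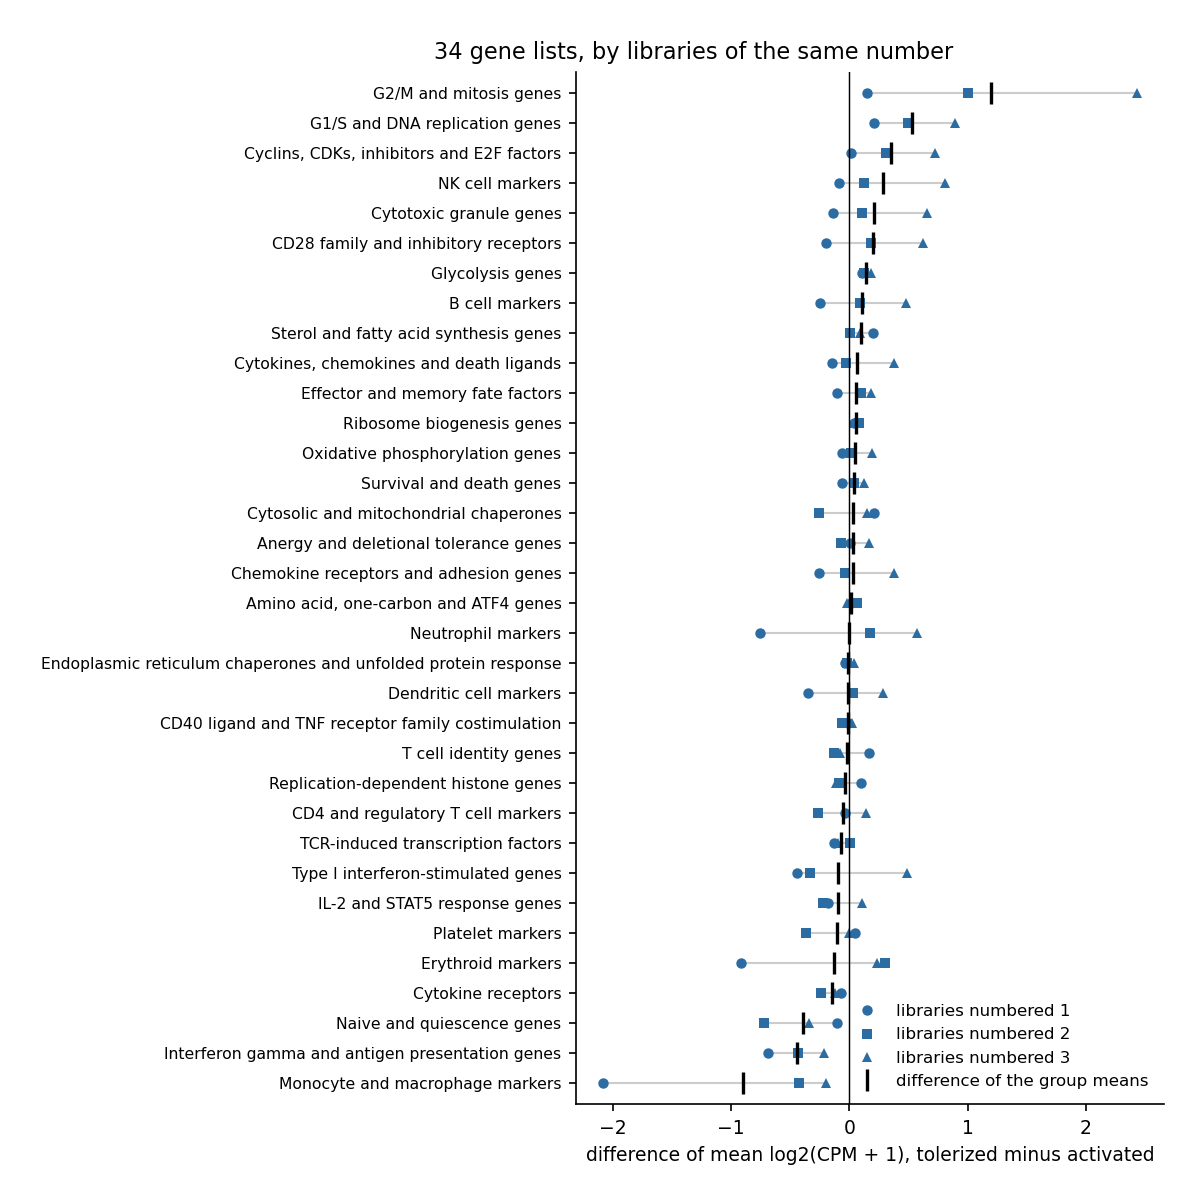
Difference of the mean log2(CPM + 1) of each of 34 gene lists between tolerized and activated libraries of the same number, with a bar at the difference of the group means. The G2/M list spreads from 0.15 to 2.43, the glycolysis list from 0.11 to 0.18, and the macrophage list from -2.08 to -0.20.

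Beyond the lists, genes that stood lower with small p-values had modest differences. Zrsr1, a splicing factor gene that lies within Commd1, stood at 332, 289 and 275 CPM in activated and 241, 224 and 232 CPM in tolerized libraries, the latter close together and below every activated one (-0.36 ± 0.08, interval -0.53 to -0.18). Pmepa1, a brake on TGF-beta signalling, stood at 12.8, 12.8 and 16.4 CPM in activated and 11.3, 8.24 and 8.06 CPM in tolerized libraries, without overlap (-0.56 ± 0.16, interval -0.92 to -0.21). Nr1d2, a clock factor, stood at 45.4, 39.2 and 52.5 CPM in activated and 38.6, 32.7 and 32.1 CPM in tolerized libraries (-0.39 ± 0.12, interval -0.66 to -0.12), also without overlap. Galnt10, which starts sugar chains on proteins, stood at 29.1, 25.7 and 28 CPM in activated and 22.8, 19.4 and 20.3 CPM in tolerized libraries (-0.39 ± 0.11, interval -0.64 to -0.15). Among genes that stood higher outside the cell cycle, Plp2, a membrane protein whose locus overlaps Prickle3, stood at 38.9, 43.8 and 38.9 CPM in activated and 52.5, 53.1 and 59.3 CPM in tolerized libraries, without overlap (0.43 ± 0.09, interval 0.23 to 0.63). Rad54b, a recombination factor, and Fsbp, which lies inside it and cannot be told apart from it by these counts, both stood higher. Rad54b was at 0.432, 5.92 and 3.17 CPM in activated and 14.2, 7.63 and 12.6 CPM in tolerized libraries, without overlap and lowest in activated 1 (1.81 ± 0.46, interval 0.80 to 2.82).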

How the data were processed

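Messenger RNA of sorted KB5 CD8 T cells from spleen was sequenced in 12 libraries on an Illumina HiSeq, per the labels' protocols. The authors deposited 1 table of 16353 genes with whole-number read counts written with commas, a unit recorded as other because such text is not read as numbers, and for this reason no count model was fitted. The deposited exon length, the other column with a unit of its own, was not used. The submitters' processing notes name TopHat2, bedtools and DESeq with the builds mm10 and GRCm38, without versions or roles, and how reads at more than 1 place were counted is not given in the sources used here. Even counts made up 55.6% to 64.4% of values from 1 to 20 and 49.3% to 50.8% of values above 1000. Spreadsheet conversion left 22 symbols as dates.

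Counts were scaled by trimmed means (30% of M, 5% of A values) and turned into CPM. Genes with at least 0.258 CPM (10 reads in the library of median size) in 3 libraries and 15 reads in all, 12499 in number, were kept. All 12 libraries entered 1 limma 3.58.1 fit (R 4.3.3, limma-trend) on log2(CPM + 1), with Benjamini-Hochberg adjustment over all tested genes and 0.05 as the threshold. The steps were tested on simulated counts. Alternatives were other scalings, filters, pseudocounts, limma-voom, robust spread, other sets of libraries, a replicate block and leaving out each library.

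Whether replicate numbers pair libraries was checked on deviations from group means. The same-number correlations were 0.602, 0.19 and 0.576, all above 0.1, so the numbers were taken to pair the libraries. The pairing rests on the data alone, as no label tells what the numbers stand for, and activated 2 with tolerized 3 gave 0.214.

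Of 812 genes on 34 lists, 785 were in the table, 5 by another symbol, and 743 were tested. Gene coordinates (16313 genes) are from the reference annotation of GRCm38.p6, and promoter windows are from RefSeq. Genes named are the 12 largest differences and the 8 smallest p in each direction (without overlap, mean of at least 10 CPM, no predicted genes or receptor segments), of each list up to 5 with the smallest p and the 2 most abundant, the 10 of at least 10 CPM with the largest SD in each group, and 25 reference genes, from which those described were taken; some of these genes are not reported here. Cblb, Ccnb2, Cd3e, Cdk1, Cdkn1b, Chaf1a, Folr4, Itga1, Vsig4, Mcm2, Mcm4 and Mcm5 fall outside that rule and were picked with their values in view. The comparison, its lists and the rule were chosen with earlier results of these data known. A count of 3 reads, 0.0562 to 0.114 CPM, was taken as the floor.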

Additional observations from a re-analysis of the deposited data

How the results depend on the processing

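Under 24 other settings 0 genes passed in all but 1, and leaving out each library gave 0 to 60 genes, the 60 without tolerized 1 (smallest adjusted p 0.0446; 0.135 or more in the other settings). With the replicate block 0 genes passed (smallest adjusted p 0.618) and 986 genes had an unadjusted p under 0.05 against 531 without it, and the pairing changed no call. Unadjusted counts otherwise ran from 298 with the 2 groups alone to 1146 without activated 1. Of 97 genes named with a value, a number that leaves out Fos, 24 had a difference of the other sign in at least 1 fit without 1 library. The 95% interval of each of these 24 with all libraries includes 0. The lowest and highest differences over those fits were for Atp5b (-0.038 to 0.15), Bcl2l1 (-0.21 to 0.27), Ccnd2 (-0.22 to 0.26), Cd27 (-0.098 to 0.10), Cd3e (-0.092 to 0.17), Cd4 (-0.24 to 0.020), Cd40lg (-0.22 to 0.33), Cdk4 (-0.062 to 0.19), Cdkn1b (-0.97 to 0.014) and Egr2 (-0.18 to 0.28). Over the same fits the values ran alike across 0 for Eomes (-0.14 to 0.37), Ifng (-0.022 to 0.44), Il2 (-0.45 to 0.38), Il2ra (-0.12 to 0.29), Ncl (-0.052 to 0.39), Nr4a1 (-0.23 to 0.22), Nr4a3 (-0.19 to 0.24), Smc4 (-0.070 to 0.56), Tnfrsf9 (-0.088 to 0.26) and Xcl1 (-0.054 to 0.47). The fit without tolerized 3 gave the lowest value for Gzmb (-0.33 to 1.08), Ly6c1 (-0.47 to 2.26), Mx1 (-0.16 to 1.33) and Tbx21 (-0.0053 to 1.02). Scaling by library size alone also turned the sign of Bcl2l1 (-0.026), Cd27 (-0.014), Egr2 (-0.0060) and Nr4a3 (-0.025), and upper-quartile scaling that of Bcl2l1 (-0.015), Cd27 (-0.0027) and Nr4a3 (-0.013). The medians of 23 of 34 lists had the other sign in some setting, and those of the G1/S, G2/M and interferon gamma lists did not. The cause was not tested. Sample quality weights did not converge and were not used. With 3 libraries a group and 1 time point, a difference under about 0.342 on the log2 scale lies within the interval of a typical gene.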
